A study of Mus musculus with 12 samples.

Results

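The 38 genes described here code for chemokines, cytokines, growth factors, feedback inhibitors and enzymes of the response to NF-kB, and they were taken from a list of symbols out of 35523 genes summed from the files. The list held 12 CC chemokines, 8 CXC and CX3C chemokines, 5 members of the interleukin 1 family, 8 other cytokines and growth factors, 3 feedback genes of NF-kB and 2 enzymes. They were measured in stromal vascular fraction (SVF) cells, the cells left once adipocytes are removed from digested fat, of the epididymal fat (eWAT) of male Lepob/Lepob (ob/ob) mice aged 12 weeks, which lack leptin and are obese. All cells were differentiated in culture, first in an adipogenic cocktail of 3-isobutyl-1-methylxanthine, insulin and the glucocorticoid dexamethasone and then in insulin alone, and were lysed at day 4 after cycloheximide, which holds ribosomes on mRNA. The groups differed in treatment, 1 µM rosiglitazone (Rosi), which activates the receptor PPARγ, or DMSO vehicle (Veh) throughout, and in the RNA sequenced, total RNA (input) or RNA of pooled heavy gradient fractions (polysome), which the series text gives as 3 or more ribosomes per mRNA and the study's methods as more than 3. No lean mice and no undifferentiated cells are among these libraries, and how many mice each culture came from was not given in the sources used here.

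Chemokines are small secreted proteins that draw leukocytes along a gradient, and their families are named for the spacing of the first cysteines. NF-kB is a family of transcription factors held in the cytoplasm by IκB proteins, and signals from TNF, interleukin 1 or microbial products free it to act on cytokine and chemokine genes and on its own inhibitors. In obese fat, macrophages, progenitors and adipocytes are all known sources of such factors, with CCL2 a classical attractant of monocytes.

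Each group had 3 deposited libraries. Input Veh replicate 3 repeated every value of replicate 2 and the pair was counted as 1 sample. Input Veh thus had n = 2, and each of the other groups had n = 3. The libraries held 17446517 to 24016101 estimated reads. Levels below are CPM, the estimated reads of a gene as a share of its library, after scaling. CPM does not correct for transcript length, so abundances of different genes are set against each other in TPM, the length-corrected unit of the deposited files, and an order of genes by CPM is an order of reads. Polysome Veh replicate 1 lay farthest out of the polysome libraries on the first principal component of all genes (−53.1, against −42.5 to −21.4 for the others). The effect of leaving it out is given wherever it moved the number of members called. The labels call the libraries biological replicates, and p-values measure only the spread between them.

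The sequence around the first base of transcription was read for the 24 members with a window in the RefSeq promoter table (GRCm38.p6, 250 bases before to 50 after each start). The consensus site of NF-kB, the κB consensus of 10 letters, was searched on both strands, with overlapping matches counted. It was found in at least 1 window of 9 of these 24 members (37.5%) and of 2581 of 27025 genes in the table (9.55%). The members were listed partly as NF-kB response genes, so this share is a description of the list. A match is letters in a window, not a bound site. Ccl2, Ccl4, Ccl5, Ccl7, Ccl11, Ccl24, Cxcl5, Cxcl16, Il10, Il34, Csf3, Osm, Nfkbiz and Nos2 had no entry. The matches of the 2 feedback genes with a window, of Il6 and of members that have the highest CPM of their class or lie in 1 gene cluster are shown, 1 match per gene, with 10 bases on each side, on the strand of the gene, with the match in capitals.
Nfkbia, inhibitor IκBα (chr12:55492657-55492686, minus strand): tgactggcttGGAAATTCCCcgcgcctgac
Tnfaip3, the deubiquitinase A20 (chr10:19015403-19015432, minus strand): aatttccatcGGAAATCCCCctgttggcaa
Cxcl1 (chr5:90891164-90891193, plus strand): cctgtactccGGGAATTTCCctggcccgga
Cxcl2 (chr5:90903792-90903821, plus strand): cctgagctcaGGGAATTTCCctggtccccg
Il6 (chr5:30013060-30013089, plus strand): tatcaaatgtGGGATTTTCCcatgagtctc
Csf1 (chr3:107760604-107760633, minus strand): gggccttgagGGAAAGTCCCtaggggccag
Ccl9 (chr11:83578652-83578681, minus strand): tttgaactttGGAAAGCCCCaagtcacctt
Matches not shown are a separate one in Tnfaip3, at −125 to −116 from the start, one each in Cxcl1 and Cxcl2 that overlaps the printed match, and those of Cxcl10 and Lif. The 10 printed letters in Cxcl1 and Cxcl2, neighbours on chromosome 5, were the same. Of the CC chemokines, 1 of 6 with a window held a match, of the CXC and CX3C chemokines 3 of 6, and of the 5 members of the interleukin 1 family none.

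The 3′ end of these mRNAs was described by the pentamer ATTTA, the core of AU-rich elements through which proteins such as tristetraprolin shorten the life of cytokine mRNAs. It was counted, overlaps included, in the 3′ UTR of the protein-coding transcript with most reads for each gene (GENCODE M21, GRCm38). Of the 31 members tested in both fractions, 27 held at least 1 (87.1%) and 19 held 3 or more (61.3%), beside 67.1% and 35.2% of 13439 genes tested that had such a transcript. Per kilobase of 3′ UTR, the members held 3.83 and all these genes 1.84. The densest 30 bases of 6 members are shown, with each ATTTA in capitals, for 3 that were low on polysomes or had the highest CPM of their class and 3 that were high on polysomes.
Tnf, 8 in the 3′ UTR (chr17:35199677-35199706, minus strand): tATTTAttATTTATTTAttATTTATTTAtt
Ptgs2, 14 in the 3′ UTR (chr1:150105798-150105827, plus strand): ATTTATTTATTTAtgtgaagaATTTAattt
Csf1, 4 in the 3′ UTR (chr3:107741105-107741134, minus strand): tataaggtcATTTAaatatctATTTAaaaa
Il6, 6 in the 3′ UTR (chr5:30019681-30019710, plus strand): attatttttaATTTAttgataATTTAaata
Ccl7, 2 in the 3′ UTR (chr11:82047246-82047275, plus strand): ctttaagttattaatatttttATTTAatta
Ccl11, 5 in the 3′ UTR (chr11:82062657-82062686, plus strand): ATTTAcactaactaaaatgttaatATTTAa
Il1rn, Cxcl14, Ccl8 and Ccl24 were the 4 tested members with none, and Ptgs2 held the most.

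The reads of the members were uneven. A mean over all 11 libraries above 100 CPM was reached by 6 members (Csf1, Ccl9, Ccl6, Cxcl16, Ccl2 and Ccl7), 15 lay between 10 and 100 CPM, 7 between 1 and 10 CPM, and 10 at 1 CPM or less. Csf1, the growth factor that keeps macrophages alive, alone held 48.6 to 51.9% of the summed CPM of the 38 genes in input Veh and 53.1 to 56.9% in input Rosi, but 27.2 to 40.5% in polysome Veh and 27.6 to 36.9% in polysome Rosi. The CC chemokines summed to 768 to 841 CPM in input Veh and 663 to 721 in input Rosi, against 1126 to 1520 in polysome Veh and 1218 to 1553 in polysome Rosi. On the length-corrected scale, Csf1 had a mean of 472 TPM in input Veh, Ccl2 258 TPM, Ccl9 248 TPM, Ccl7 202 TPM and Ccl6 161 TPM. In input Rosi the mean TPM was 543 for Csf1, 273 for Ccl2, 221 for Ccl7, 202 for Ccl9 and 162 for Ccl6. In polysome Veh it was 488 for Ccl7, 469 for Ccl2, 384 for Ccl9, 348 for Csf1 and 293 for Ccl6. In polysome Rosi the order was Ccl7 (523 TPM), Ccl9 (441 TPM), Ccl2 (425 TPM), Csf1 (340 TPM) and Ccl6 (319 TPM). Of these genes, Csf1 was thus the highest in input with either treatment, and lay below Ccl7, Ccl9 and Ccl2 on polysomes with either treatment.

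**Figure D1:**
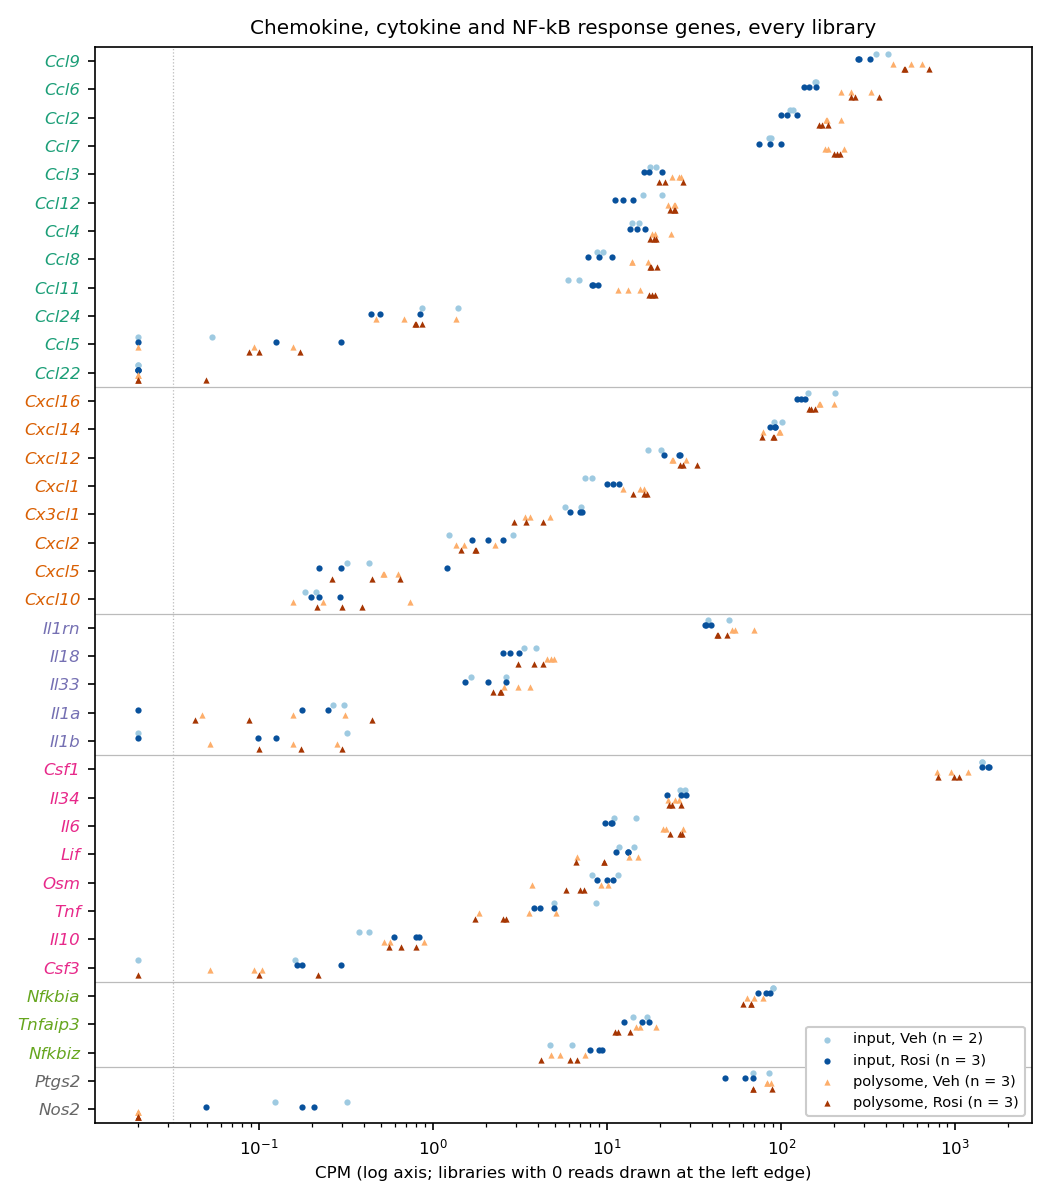
CPM of each of the 38 genes (rows, grouped by class and ordered by mean level) in each of 11 libraries on a log axis, with circles for input, triangles for polysome, light colours for Veh and dark colours for Rosi. Points left of the dotted line are libraries with 0 reads, and Csf1 lies to the right of all others while Ccl22, Ccl5, Il1a, Il1b, Csf3, Cxcl10 and Nos2 stay under 1 CPM in every library.

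Several members known from activated macrophages were at or near the counting limit, where 3 reads stand for 0.124 to 0.184 CPM in these libraries. Ccl22, a ligand of CCR4 on T cells, had 1 read in all 11 libraries together. Nos2, the inducible nitric oxide synthase, had 2 and 6 reads with Veh and 1, 4 and 5 with Rosi in input, and 0 in each of the 6 polysome libraries. Il1b, the secreted interleukin 1β, had 0 and 6 reads with Veh and 2, 0 and 3 with Rosi in input, and 1, 6 and 3 in polysome Veh and 7, 4 and 2 in polysome Rosi. Il1a, Ccl5, Csf3 and Cxcl10 had 42, 23, 29 and 65 reads in all. These 7 genes did not pass the filter on low counts, and Cxcl5, at 0.498 CPM over all libraries, was left out in input only. So 30 members were tested for Rosi against Veh in input and 31 in the other comparisons. Without the filter, 37 or 38 members were tested, and Nos2 was called lower on polysomes than in input in both arms, from the reads given above.

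Cell type markers were read in the same libraries, since SVF is a mixture. The summed CPM of 14 macrophage markers was 17658 to 20314 in input Veh and 12859 to 14941 in input Rosi. All 14 log2 fold changes were below 0, beside 6548 of 13603 genes tested. Of the 14, 2 were called lower, Lyz2 and Msr1, beside 28 of all these genes. In polysome RNA the same sum was 18019 to 23402 in Veh and 16226 to 20537 in Rosi. Again all 14 log2 fold changes were below 0, beside 7029 of 13436 genes tested. The median of the macrophage markers was −0.20 in polysome RNA, where none of them was called, and −0.37 in input. Neutrophil markers (6 genes) summed to 1.45 to 3.33 CPM and lymphocyte markers (8 genes) to 0.184 to 1.3 CPM over all groups, so both sums were low. Of these genes, 2 neutrophil markers passed the filter on low counts in both RNA pools. For lymphocytes, 0 markers passed it in input and 1 in polysome RNA. Adipocyte markers (6 genes) summed to 371 to 417 CPM in input Veh and 765 to 986 in input Rosi. Most of the sum in Veh came from Lpl and Cd36, with means of 203 and 188 CPM. Adipoq, Plin1 and Cidec had means of 0.416, 1.55 and 0.687 CPM in input Veh and 32.3, 44.2 and 147 in input Rosi. Of 5 adipocyte markers tested in input, 4 were called higher (1.34% of all genes were called in either direction), and their median log2 fold change was 4.93. Smooth muscle markers (3 genes) summed to 11092 to 11220 CPM in input Veh and 9743 to 10266 CPM in input Rosi. Their log2 fold changes in the fit within input ran from −0.12 to 0.13, and 0 were called. The part of these marker differences in the members' values was not tested. In bulk RNA, fewer cells of a type and less RNA per cell cannot be told apart.

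The first comparison asked whether Rosi changed these mRNAs in total RNA. A call needed an adjusted p under 0.05 with a log2 fold change beyond 0.2 in size, and 0 of 30 members met it, where 1.34% of all 13603 genes tested were called. At an unadjusted p under 0.05, 4 members were higher (9.2% of all genes) and 5 lower (7.79% of all genes). The median log2 fold change of the members was 0.03, beside 0.01 over all genes, and single members ranged from −0.87 for Ccl24 to 0.95 for Il10, both under 2 CPM in every library. DESeq2 called none of the members either. CPM are scaled over all 11 libraries and this fit within input alone, so where a difference is near 0, as for Ccl2 and Tnfaip3, the CPM means and the fold change can differ in sign. Whether groups overlapped was read from CPM too, so a narrow gap, as for Nfkbia, may not hold on the scaling of the fit.

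Among the CC chemokines, Ccl9, a macrophage chemokine also known as MIP-1γ, had the highest CPM, while in TPM Ccl2 was above it in input and Ccl7 on polysomes. Its CPM was 349 and 409 in input Veh and 322, 279 and 274 in input Rosi, so the groups did not overlap. The log2 fold change was −0.31 ± 0.10 (SE) with an adjusted p of 0.136. Ccl6, another chemokine of myeloid cells, stood at 156 and 158 CPM in input Veh and 157, 143 and 135 in input Rosi. These groups overlapped, and the log2 fold change was −0.04 ± 0.09 (SE), with a 95% interval from −0.24 to 0.15. Ccl7, a monocyte attractant related to Ccl2, was at 87.4 and 85.2 CPM in Veh and 74.1, 100.1 and 86 in Rosi, again with overlap (0.08 ± 0.12, adjusted p = 0.773). Ccl11, eotaxin, which attracts eosinophils, was at 6.91 and 5.97 CPM in Veh and 8.18, 8.27 and 8.87 in Rosi. All Rosi libraries were above both Veh libraries, with a log2 fold change of 0.46 ± 0.17 (SE) and an adjusted p of 0.191. Ccl2 itself differed by 0.02 ± 0.11 (SE), with a 95% interval from −0.21 to 0.26, and Ccl12, a mouse ligand of the same receptor CCR2, by −0.50 ± 0.14 (adjusted p = 0.117).

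Cxcl16, a membrane-bound chemokine that also binds oxidised lipoprotein, had the highest CPM of the CXC class. Its CPM was 142 and 204 in input Veh, which lay far apart, and 137, 129 and 123 in input Rosi, all just below the lower of them. The log2 fold change was −0.35 ± 0.13 (SE) with an adjusted p of 0.185. Cxcl14, a chemokine of epithelial and stromal cells, lay at 90.6 and 100.4 CPM in Veh and 92, 92.1 and 85.9 in Rosi and did not separate the groups (−0.02 ± 0.09). Cxcl12, the stromal ligand of CXCR4, and Cxcl1, a neutrophil attractant, had log2 fold changes of 0.45 ± 0.14 and 0.54 ± 0.16, with adjusted p of 0.131 and 0.112.

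Il1rn, the secreted antagonist of the interleukin 1 receptor, had the highest CPM of the interleukin 1 family, with 37.7 and 50.3 CPM in input Veh and 36.6, 39.6 and 36.7 in input Rosi. The groups overlapped, and the log2 fold change was −0.16 ± 0.12 (SE, adjusted p = 0.519). Il18, activated by inflammasomes, was at 3.92 and 3.31 CPM in Veh and 2.51, 2.77 and 3.11 in Rosi (−0.29 ± 0.24, adjusted p = 0.555). Csf1 was at 1426 and 1422 CPM in Veh and 1431, 1568 and 1542 in Rosi. Each Rosi library was above both Veh libraries, by a log2 fold change of 0.16 ± 0.08 (SE) with an adjusted p of 0.354. Il34, the other ligand of the Csf1 receptor, was at 26 and 28.1 CPM in Veh and 26.6, 22.1 and 28.1 in Rosi (−0.01 ± 0.12). Il6 was at 10.9 and 14.7 CPM in Veh and 10.5, 10.7 and 9.7 in Rosi (−0.25 ± 0.15, adjusted p = 0.431). Tnf, a main activator of NF-kB, had a log2 fold change of −0.61 ± 0.24 with an adjusted p of 0.217.

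Of the feedback genes of NF-kB, none was called in input, and Nfkbia and Tnfaip3 lay within 1 SE of 0. Nfkbia was at 89 and 89.8 CPM in Veh and 86.5, 81.4 and 73 in Rosi without overlap (−0.09 ± 0.09, adjusted p = 0.659). Tnfaip3 was at 14.1 and 17 CPM in Veh and 12.5, 17.3 and 15.9 in Rosi, with overlap (0.04 ± 0.16). Nfkbiz, a nuclear IκB that acts with NF-kB on a second wave of genes, had the smallest p of all members in input, with a log2 fold change of 0.75 ± 0.19 (SE) and an adjusted p of 0.081. It was at 6.3 and 4.69 CPM in Veh and 7.99, 9.38 and 8.95 in Rosi, all Rosi libraries being the higher. Ptgs2, the inducible cyclooxygenase of prostaglandin synthesis, was at 68.3 and 85 CPM in Veh and 61.6, 68.6 and 47.2 in Rosi (−0.31 ± 0.14, adjusted p = 0.293).

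The count of 0 in input depended on the libraries and the filter. Without input Rosi replicate 1 it was 6, while calls over all genes went from 182 to 1580, with Ccl9, Ccl12 and Cxcl16 lower and Cxcl1, Cxcl12 and Nfkbiz higher, and without input Veh replicate 1 it was 1 (Cxcl16, lower). The same 6 genes passed without a filter on low counts, where 907 genes were called in all.

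**Figure D2:**
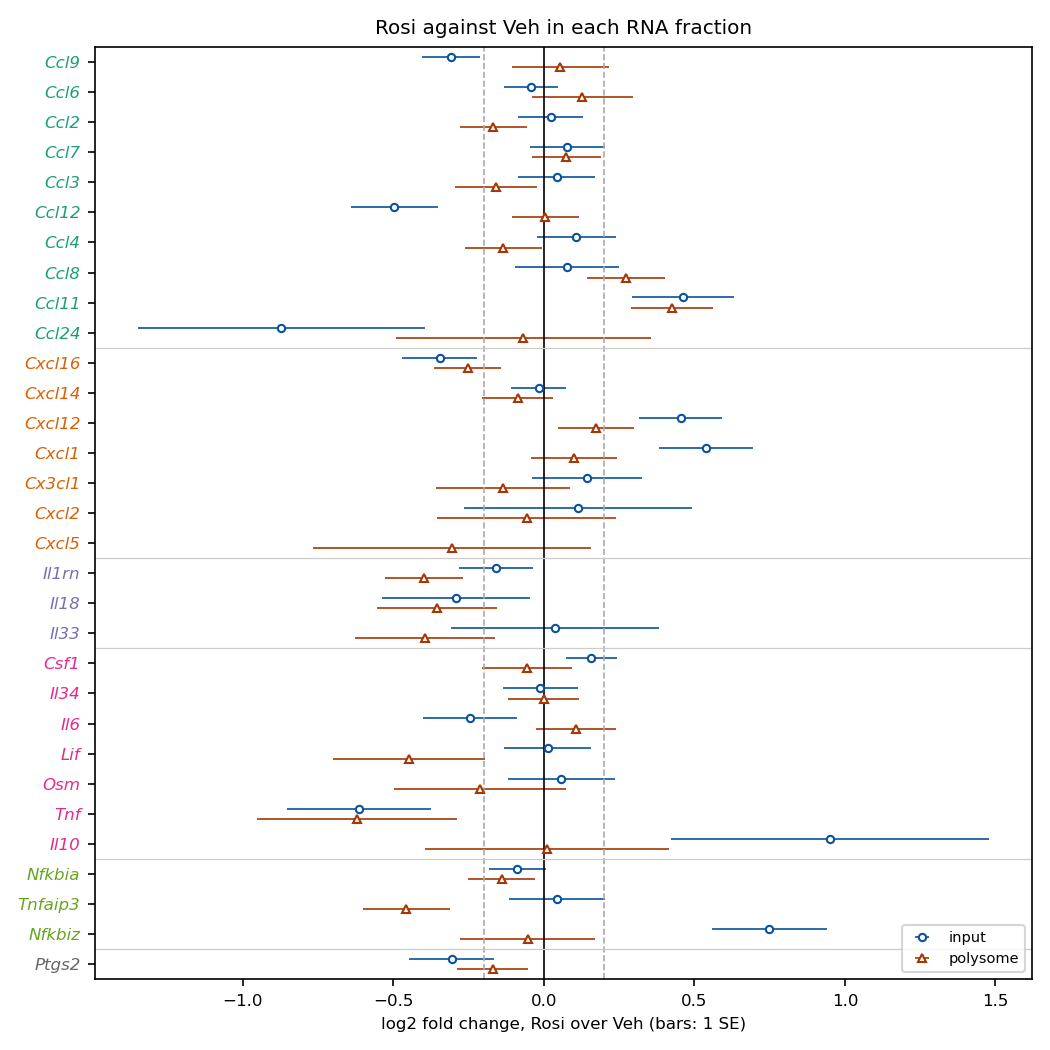
Log2 fold change of Rosi over Veh (x axis) for each tested member (rows, grouped by class) in input (circles) and polysome (triangles) RNA, with bars of 1 SE and dashed lines at the fold threshold of 0.2. All symbols are open because 0 of 30 members in input and 0 of 31 in polysome RNA were called.

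In polysome RNA no member was called either (0 of 31), where 0.655% of 13436 genes were called. At an unadjusted p under 0.05, Ccl11 was higher (1 member, beside 2.56% of all genes) and 3 members, Cxcl16, Il1rn and Tnfaip3, were lower (beside 2.17%), while DESeq2 called 0. The median log2 fold change was −0.09 for the members and −0.01 for all genes, with 21 of 31 members below 0, beside 7029 of 13436 genes. Il1rn was at 54.2, 69.7 and 52.4 CPM in Veh and 43.3, 48.5 and 42.9 in Rosi, without overlap, and its log2 fold change was −0.40 ± 0.13 (SE) with an adjusted p of 0.588. Tnfaip3 was at 14.6, 18.9 and 15.5 CPM in Veh and 13.4, 11.5 and 11 in Rosi, also without overlap (−0.46 ± 0.14, adjusted p = 0.536). All 3 tested members of the interleukin 1 family had values from −0.40 to −0.35, none with an adjusted p under 0.05.

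Ccl11 had nearly the same difference in both RNA pools. In polysome RNA its CPM was 15.4, 13.1 and 11.5 in Veh and 18.1, 17.4 and 18.8 in Rosi, so that all Rosi libraries were above all Veh libraries. The log2 fold change was 0.43 ± 0.14 (SE, adjusted p = 0.564), beside 0.46 ± 0.17 in input. Nfkbiz, in contrast, differed by −0.05 ± 0.22 in polysome RNA, Ccl9 by 0.05 ± 0.16 and Ccl12 by 0.00 ± 0.11. Csf1 differed by −0.06 ± 0.15, with 785, 947 and 1188 CPM in Veh and 1046, 984 and 798 in Rosi, where the groups covered the same range.

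The second comparison asked which of these mRNAs were more or less abundant on polysomes than in total RNA. With the same limit on adjusted p and a log2 fold change beyond 1 in size, 2 members were called in Veh, both higher, where 9.67% of 14042 genes were called and 2.99% were called higher. In Rosi, 4 members were called, all higher, beside 11.3% of genes called and 6.49% called higher. At an adjusted p under 0.05 alone, 13 members were higher in Veh (24.7% of all genes) and 4 lower (24.6%), and 12 were higher in Rosi (29.1%) and 5 lower (26%). The median log2 ratio of polysome over input was 0.39 in Veh and 0.24 in Rosi for the members, and 0.02 and 0.00 for all genes. Without input Veh replicate 1, 8 members were higher and 2 lower in Veh. With limma on TPM, 14 members were higher and 0 lower in Veh at this threshold, and without polysome Rosi replicate 3 the members lower in Rosi were 2. Without polysome Veh replicate 1, 11 members were higher and 3 lower in Veh, and 8 were lower in Rosi. DESeq2 gave 7 lower in Rosi. CPM are shares of each library, so these ratios are relative to the other mRNAs of the same pool.

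Ccl7 (chromosome 11, 82045712 to 82047525, GRCm38) was called in both arms. Its 229, 178 and 185 CPM in polysome Veh were all above the 87.4 and 85.2 of input Veh, a log2 ratio of 1.19 ± 0.14 (SE, adjusted p = 6.74e-06). In Rosi, 202, 218 and 208 CPM on polysomes stood against 74.1, 100.1 and 86 in input, a log2 ratio of 1.27 ± 0.12 (adjusted p = 8.7e-07). Both are over 2-fold, 2.29 in Veh and 2.41 in Rosi, with no overlap between the pools.

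Ccl11, its neighbour in the same chemokine cluster, was called in both arms as well. Its polysome values of 15.4, 13.1 and 11.5 CPM in Veh were above 6.91 and 5.97 in input (1.05 ± 0.15, adjusted p = 5.43e-05). In Rosi, 18.1, 17.4 and 18.8 CPM stood against 8.18, 8.27 and 8.87 (1.10 ± 0.13, adjusted p = 4.76e-06). Without polysome Veh replicate 1 the log2 ratio in Veh was 0.93 and without input Veh replicate 2 it was 0.95, both under the fold threshold, with adjusted p of 0.000112 and 0.00243.

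Ccl6 (chromosome 11, 83587882 to 83593087) was called in Rosi only. Polysome values of 250.3, 263 and 364 CPM were all above 157, 143 and 135 in input, a log2 ratio of 1.01 ± 0.15 (SE, adjusted p = 4.33e-05). In Veh it was 327, 249.7 and 221 CPM against 156 and 158 (0.76 ± 0.17, adjusted p = 0.00166). The 2 arms differed by 0.25 ± 0.22 (adjusted p = 0.815), so a difference between them was not shown. The ratio in Rosi lay at the threshold, and without polysome Rosi replicate 3 it was 0.82.

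Il6, the interleukin of the acute phase response, was the only called member that is no chemokine. In Rosi its polysome CPM was 22.8, 26.7 and 26.1 against 10.5, 10.7 and 9.7 in input, a log2 ratio of 1.29 ± 0.14 (SE, adjusted p = 2.08e-06). In Veh it was 27.1, 20.9 and 21.8 CPM against 10.9 and 14.7 (0.86 ± 0.15, adjusted p = 0.000314), without overlap in either arm.

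**Figure D3:**
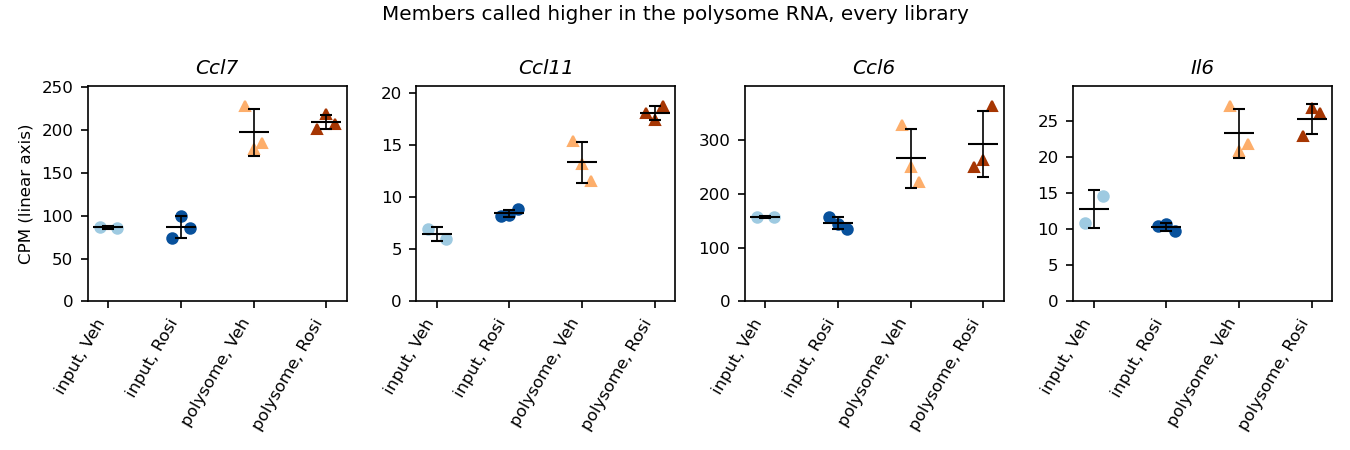
CPM on linear axes from 0 for the 4 members called higher in polysome RNA, with a point for each library, a bar for the mean and whiskers of 1 SD (n = 2 for input Veh, n = 3 for the others). For each gene all polysome libraries lie above all input libraries of the same treatment.

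Most CC chemokines had higher shares of polysome RNA. Of 10 tested, 9 were higher on polysomes at an adjusted p under 0.05 alone in Veh (24.7% of all genes) and 9 in Rosi (29.1%). Ccl24 was the exception, at 0.814 CPM over all libraries. Ccl4 in Rosi was at an adjusted p of 0.046 and passed in 8 of 19 alternatives. The median log2 ratio of the 10 was 0.62 in Veh and 0.96 in Rosi. Ccl9 had 646, 559 and 438 CPM on polysomes in Veh against 349 and 409 in input (0.53 ± 0.17, adjusted p = 0.0152), and 503, 512 and 703 against 322, 279 and 274 in Rosi (0.97 ± 0.15, adjusted p = 5.61e-05). Ccl2 had log2 ratios of 0.77 ± 0.12 and 0.66 ± 0.11, Ccl8, another ligand of this family, 0.71 ± 0.16 and 0.99 ± 0.13, and Ccl12 0.36 ± 0.13 and 0.94 ± 0.12 in Veh and Rosi. Ccl3 and Ccl4, the macrophage inflammatory proteins 1α and 1β, lay lower, at 0.46 ± 0.15 and 0.46 ± 0.14 in Veh and 0.34 ± 0.13 and 0.30 ± 0.12 in Rosi. Of the listed CC chemokines, 5 lie within 81.2 kb of chromosome 11 (82035571 to 82116799: Ccl2, Ccl7, Ccl11, Ccl12 and Ccl8). Another 5 lie within 139 kb (83525778 to 83664683: Ccl9, Ccl6, Ccl3, Ccl4 and Ccl5, the last of which was not tested). Without input Veh replicate 1, the count in Veh was 5 of 10, and over the other libraries left out in turn it was 7 to 9. The count in Rosi was 7 to 9 with a library left out. With a replicate block it was 9 in Veh and 7 in Rosi.

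The CXC and CX3C chemokines were split. Cxcl16 lay at 167, 201 and 164 CPM on polysomes in Veh and 148, 144 and 157 in Rosi, with log2 ratios of 0.04 ± 0.14 and 0.21 ± 0.12, and Cxcl14 at 78, 98.1 and 96.3 CPM and 90.9, 89.7 and 77.7, with ratios of −0.07 ± 0.12 and −0.06 ± 0.11. Neither ratio had an adjusted p under 0.05. Cxcl1 was higher on polysomes at an adjusted p under 0.05 alone in both arms (0.91 ± 0.16 and 0.55 ± 0.13). Cx3cl1, fractalkine, a membrane-anchored chemokine, was lower in both at the same threshold (−0.72 ± 0.21, adjusted p = 0.0106, and −0.92 ± 0.19, adjusted p = 0.000701). Its polysome CPM of 2.92 to 4.66 lay below all its input values of 5.7 to 7.13.

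Csf1, the member of highest CPM, was lower on polysomes at an adjusted p under 0.05 alone in both arms. In Veh, 785, 947 and 1188 CPM stood below 1426 and 1422 in input (−0.55 ± 0.15, adjusted p = 0.00554), and in Rosi 1046, 984 and 798 CPM stood below 1431, 1568 and 1542 (−0.68 ± 0.13, adjusted p = 0.000436). Tnf, at 4.96 and 8.64 CPM in input Veh and 1.82, 5.09 and 3.56 in polysome Veh, had a log2 ratio of −0.96 ± 0.33 (adjusted p = 0.0258), with 1 polysome library above the lower input library. In Rosi, its 2.52, 2.6 and 1.73 CPM on polysomes were all below the 4.93, 4.09 and 3.77 of input (−0.89 ± 0.32, adjusted p = 0.0261). Il34, at 22.2, 25.7 and 24.3 CPM on polysomes in Veh and 26.6, 23.5 and 22.6 in Rosi, had ratios of −0.17 ± 0.13 and −0.08 ± 0.11.

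Il1rn was at 54.2, 69.7 and 52.4 CPM on polysomes in Veh, all above input (0.42 ± 0.14, adjusted p = 0.0261), while its ratio in Rosi was 0.26 ± 0.13 (adjusted p = 0.102). Il18 was at 4.74, 4.91 and 4.5 CPM in polysome Veh and 3.08, 4.29 and 3.77 in polysome Rosi (0.39 ± 0.21 and 0.40 ± 0.19). Nfkbia was lower on polysomes at an adjusted p under 0.05 alone in both arms, with 63.4, 78.5 and 70 CPM in polysome Veh and 66.8, 66.5 and 60.4 in polysome Rosi (−0.34 ± 0.11, adjusted p = 0.0215, and −0.31 ± 0.10, adjusted p = 0.0164). Tnfaip3 had ratios of 0.07 ± 0.17 and −0.35 ± 0.15 (adjusted p = 0.739 and 0.0585). Nfkbiz had 0.09 ± 0.24 in Veh and −0.63 ± 0.20 in Rosi (adjusted p = 0.774 and 0.0152). Of the members not yet given, the leukemia inhibitory factor Lif and oncostatin M (Osm), both cytokines of the Il6 family, had ratios of −0.16 ± 0.25 and −0.37 ± 0.29 in Veh and −0.54 ± 0.23 and −0.56 ± 0.26 in Rosi, none with an adjusted p under 0.05. Il33, Il10 and Cxcl5, all under 4 CPM, ranged from −0.37 to 0.70 over both arms without passing it, and Cxcl12 passed it in Veh alone (0.44 ± 0.15, adjusted p = 0.0215). Ptgs2 was at 87.3, 82.3 and 83 CPM in polysome Veh and 69.1, 88.5 and 68.5 in polysome Rosi, with ratios of 0.13 ± 0.16 and 0.35 ± 0.14, of which the second had an adjusted p of 0.0435.

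**Figure D4:**
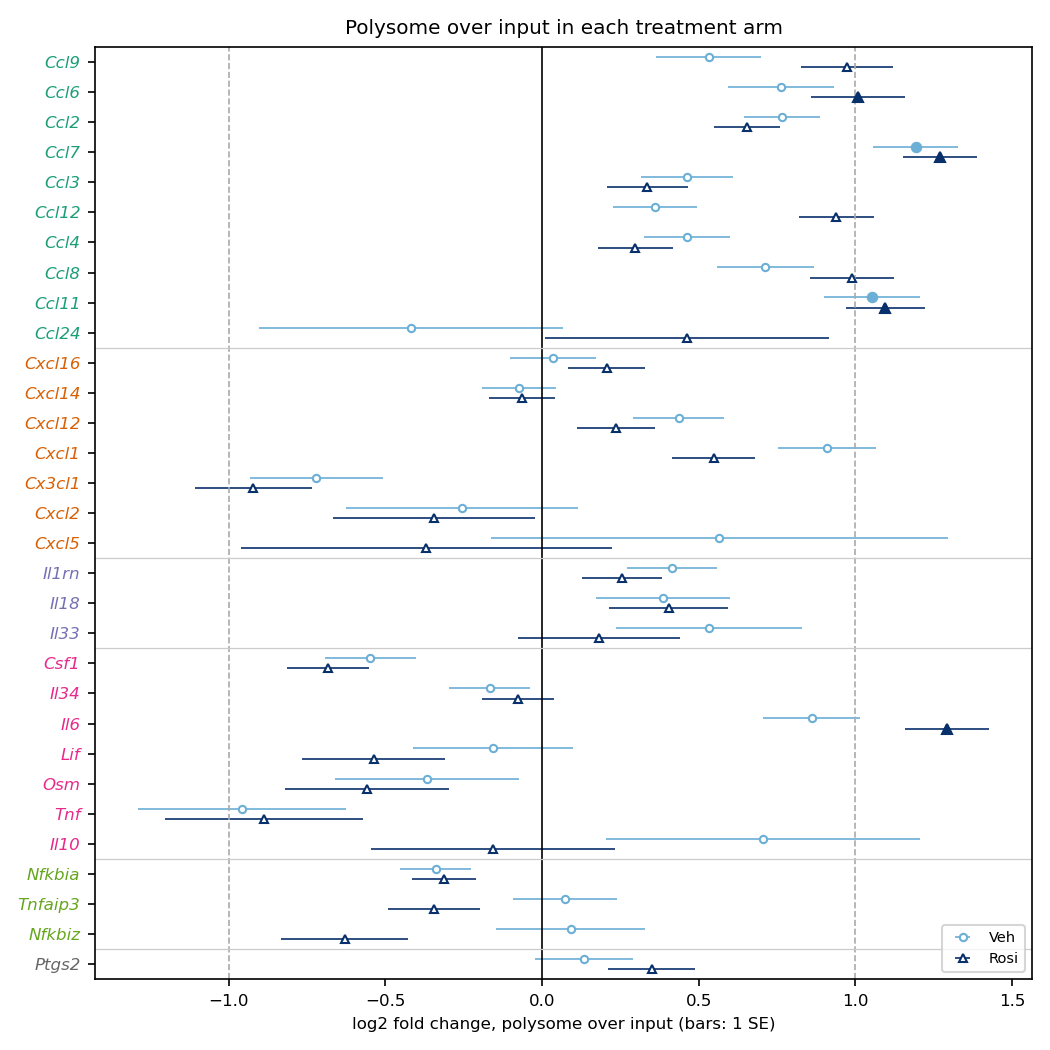
Log2 fold change of polysome over input (x axis) for each tested member (rows, grouped by class) in Veh (circles) and Rosi (triangles), with bars of 1 SE, dashed lines at the fold threshold of 1 and filled symbols for called members. The CC chemokines at the top lie right of 0 except for Ccl24 in Veh, and Cx3cl1, Csf1, Tnf and Nfkbia lie left of 0 in both arms.

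Coding length moved with these ratios. The 10 tested CC chemokines had coding sequences of 276 to 444 bases (median 301.5), while the other 21 tested members had a median of 705 bases and all genes with a transcript a median of 1344. Over the 31 tested members, the rank correlation of coding length with the log2 ratio was −0.51 in Veh and −0.56 in Rosi, beside −0.30 and −0.32 over 13439 genes, which share these libraries and are not independent replicates. The 727 tested genes with a coding length in the range of the CC chemokines had a median log2 ratio of 0.40 in Veh and 0.48 in Rosi, beside 0.62 and 0.96 for the CC chemokines themselves. Of tested CXC chemokines as short as the CC chemokines or shorter, Cxcl1 (288 bases) and Cxcl12 (267 bases) lay above 0 in both arms. Cxcl14 (297 bases) and Cxcl2 (300 bases) lay below 0 in both. Cxcl5 (396 bases), at 0.498 CPM over all libraries, had ratios of 0.57 in Veh and −0.37 in Rosi. Il6 (633 bases) was above most members that are shorter. The number of ATTTA had a rank correlation of 0.04 in Veh and −0.15 in Rosi with the ratio over the members. Tested members with 3 or more ATTTA had median ratios of 0.44 in Veh and 0.18 in Rosi, those with fewer 0.21 and 0.28. Over all genes with a transcript, the medians were 0.31 and 0.30 with 3 or more, and −0.19 and −0.16 with fewer. The part of coding length or of ATTTA in the ratios of single members was not tested.

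**Figure D5:**
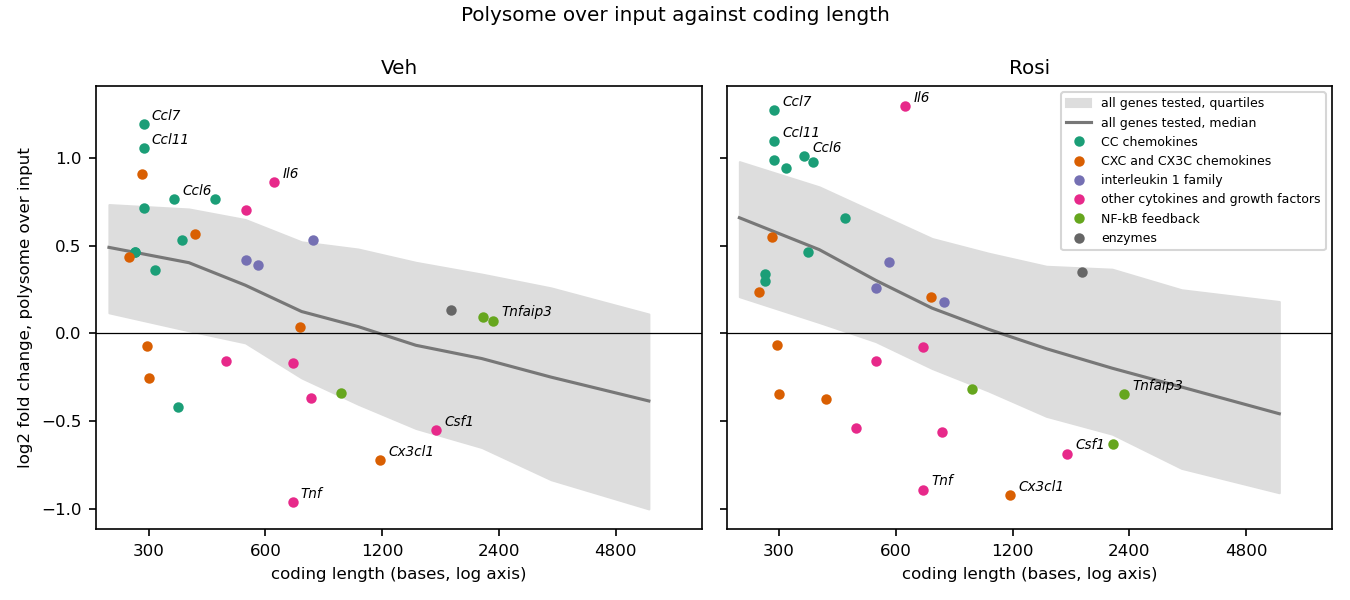
Log2 fold change of polysome over input (y axis) against coding length in bases (log x axis) for the tested members, coloured by class, in Veh (left) and Rosi (right), over the median (line) and quartiles (grey band) of all genes tested in bins of coding length. Ccl7, Ccl11 and Il6 lie above the band in both arms, and Tnf and Cx3cl1 lie below it.

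Translation efficiency, the difference between the log2 ratios of polysome over input in Rosi and in Veh, was called for 0 of 31 members and for 0% of 14042 genes. At an unadjusted p under 0.05, 2 members were higher, Ccl12 and Il6 (4.46% of all genes), and 1 was lower, Nfkbiz (2.39%), and DESeq2 called 0 members. The difference was 0.58 ± 0.18 (SE) for Ccl12, with a 95% interval from 0.20 to 0.96, and 0.43 ± 0.20 for Il6. For Nfkbiz it was −0.72 ± 0.31, with an interval from −1.39 to −0.06, and all 3 had an adjusted p of 0.719. Nfkbiz was at 5.36, 4.77 and 7.43 CPM in polysome Veh and 6.67, 6.12 and 4.16 in polysome Rosi, which overlapped, unlike its input values. For Ccl7 the difference was 0.08 ± 0.18, with an interval from −0.30 to 0.45, and for Csf1 −0.13 ± 0.20, from −0.55 to 0.28. The comparisons share libraries, so the differences of input, polysome and their ratio are not independent of each other.

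Receptors and signalling genes of the same pathway were counted beside the members. For Rosi against Veh, none of the tested genes was called in either RNA pool among the chemokine receptors (9 tested of 22), the cytokine receptors (15 in input and 16 in polysome of 17), the genes of NF-kB signalling (25 of 25), the inflammasome and prostaglandin genes (7 of 7) and the regulators of AU-rich mRNA (9 of 9). Of all genes tested, 1.34% were called in input and 0.655% in polysome RNA. The median log2 fold change of the chemokine receptors was −0.23 in input and −0.25 in polysome RNA, beside 0.01 and −0.01 over all genes. At an unadjusted p under 0.05, 3 of 9 were lower in input (7.79% of all genes) and 1 of 9 in polysome RNA (2.17%). Ccr1, the chemokine receptor of highest CPM and one that binds Ccl3, Ccl6 and Ccl9, had a mean of 71.6 CPM in input Veh (SD 3.98) against 59.9 CPM in input Rosi (SD 1.41), with a log2 fold change of −0.19 ± 0.09 and an adjusted p of 0.311.

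For polysome over input, Csf1r, the receptor of Csf1 and Il34, was called lower in both arms (−1.47 ± 0.13, adjusted p = 1.04e-06 in Veh, and −1.11 ± 0.12, adjusted p = 3.28e-06 in Rosi). Csf1 and its receptor thus both had lower shares of polysome RNA than of input, while Il34 did not pass. Il18rap, a chain of the receptor of Il18, was called higher in both arms (1.36 ± 0.36 and 1.14 ± 0.30), at 0.809 to 2.07 CPM in the group means. Il1r2, the decoy receptor, was called higher in Rosi at under 1 CPM in all group means. Of NF-kB signalling, Nfkb2 was called lower in both arms (−1.39 ± 0.14 and −1.26 ± 0.13), and in Rosi Chuk, the kinase IKKα, and Tlr4, the receptor of endotoxin, were called higher (1.14 ± 0.10 and 1.32 ± 0.11). Gsdmd, the pore protein of pyroptosis, was called lower in both arms (−1.17 ± 0.16 and −1.12 ± 0.15), and Nlrp3 and the AU-rich binding protein Khsrp in Rosi (−1.05 ± 0.18 and −1.05 ± 0.12). In Veh, Chuk, Tlr4, Nlrp3 and Khsrp were not called, but their group means differed in the same direction. Chuk had 45.9 CPM in input Veh and 86.5 in polysome Veh, Tlr4 28.6 and 51.2, Nlrp3 20.3 and 12.3, and Khsrp 73.0 and 36.5. No gene was called for translation efficiency, so a difference between the arms was not shown for these genes or Il1r2. No chemokine receptor was called in either arm, where 9.67% of all genes were called in Veh and 11.3% in Rosi.

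Ccl2, Ccl6, Cxcl10, Cxcl16, Il1a, Il1b, Il18 and Il34 each overlap a gene on the opposite strand in GENCODE M21, and the counting was not stated to use strand, so reads of the partners could enter their values. Several members have close relatives, such as Ccl6 and Ccl9 or Ccl2, Ccl7 and Ccl12, between which reads could be split by the transcript quantification.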

How the data were processed

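The members, lists and tests were chosen with earlier results of these data known. SVF cells of eWAT of ob/ob mice gave input and polysome poly(A) libraries; the titles name the second kind by the tissue alone, and it was taken as the polysome pool because the other is called input. The series text gives another number of days of differentiation than the 4 of the protocol, and the protocol was followed. Per the labels, the authors used bcl2fastq 2.17, FastQC, Salmon and DESeq2 (versions of the last 3 not given in the sources used here) with mm10. The authors deposited an estimated count per transcript, tested here, with TPM, used in 1 alternative and for levels between genes, and an effective length, not used as a measure.

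Of 117135 transcripts, 115973 matched GENCODE M21, and 0.381 to 0.464% of reads were left out with the rest. The estimated counts of their transcripts were added up for 35523 genes, then rounded. Of 12 deposited libraries 11 were kept. The test was edgeR's (4.0.16, in R 4.3.3) two-sided quasi-likelihood test, with TMM scaling and the filterByExpr filter, with Benjamini-Hochberg adjustment over all genes tested. Rosi against Veh was fitted within input and within polysome, and the other comparisons in 1 fit of the 4 groups, in which translation efficiency is the interaction of RNA pool and treatment. Calls needed an adjusted p under 0.05 and a log2 fold change beyond 0.2 in size between treatments, or beyond 1 for the other comparisons. SE was taken as the size of the log2 fold change divided by the root of F, and intervals (95%) use the t distribution of the fit. The script was tested on simulated data. Values per library are given for members called in any comparison and the 2 of highest mean CPM in each class, and those given for other members (Nfkbiz, Tnf, Cx3cl1, and reads of the rarest genes) were chosen after their values were seen, as were other members named with a ratio. Of other lists, up to 4 called genes are named, or the one of highest CPM. Alternatives were DESeq2 1.42.0, RLE factors, no count filter, a minimum of 10 counts in all libraries of any 1 group, a replicate block, all 12 libraries, limma 3.58.1 on log2 of TPM plus 1 (TPM of at least 1 in 2 libraries), protein-coding transcripts only, adjusted p alone, 1 fit of all groups, and each library left out in turn. Floors cover counting error only.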

Additional observations from a re-analysis of the deposited data

How the results depend on the processing

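With input Veh at n = 2, small differences in input rest on few libraries. The count of members called for Rosi against Veh in input was 0 (182 over all genes), and it was 6 without a filter on low counts (3 higher, 3 lower, 907 over all genes), 6 with all 12 libraries as deposited (4 higher, 2 lower, 1054 over all genes), in which 1 library counts as 2, and 0 to 6 with a library left out (66 to 1580 over all genes). In polysome RNA and for translation efficiency it was 0 under every alternative run. For polysome over input in Veh it was 2 (1358 over all genes), 17 at an adjusted p alone (6929), and 1 to 4 with a library left out (995 to 1705), with 1 without polysome Veh replicate 1, 4 without polysome Veh replicate 2 and 3 without input Veh replicate 1. In Rosi it was 4 (1593), 17 at an adjusted p alone (7731), and 3 to 7 with a library left out (1351 to 1769), with 7 without polysome Rosi replicate 1. With the replicate number as a block the counts were 0, 0, 2, 4 and 0, as in the fit without it. The deviations of libraries with the same number correlated by −0.23 to 0.11. The study took input from the samples before fractionation, so input and polysome libraries may share lysates. The correlations cannot settle this, since with n = 2 the deviations in input Veh are exact opposites. The numbers were not treated as pairs in the main fit, so any such pairing was left out of it. Ccl6 in Rosi lay under the fold threshold, at 0.82 to 1.00, with DESeq2, RLE factors, limma and without polysome Rosi replicate 3 or input Rosi replicate 2 or 3. No value of a called member changed sign under the alternatives run. Causes of these changes were not tested. The 7 members under the count filter had 1 to 65 reads over all libraries, and without the filter Nos2 was the 1 of them called, lower on polysomes in both arms.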
